A study of Homo sapiens with 4 samples.

Results

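The genes described here are 34 genes of cholesterol and fatty acid synthesis and their control, a list of named genes, all 34 of which could be tested among 16137 genes tested and 60721 counted. They were followed in Hs578T cells, an established line from a human breast carcinoma, grown with 10% serum and 10 µg/mL insulin. All cells were co-transfected with GFP. The SCR group received a non-targeting RNA and the siTLN1 group an siRNA against TLN1, which encodes talin-1, an adaptor between integrins and the actin cytoskeleton. Each RNA was used at 1.6 µM, and the cells were harvested 48 h later, with 2 biological replicates per group. Polyadenylated RNA was sequenced and counted per gene. The comparison asks whether messages of the lipid synthesis pathways differed once talin-1 was depleted. The 2 count columns of each group are called library a and library b here, after a number in the column names that recurs in both groups and whose meaning no label gives. The test treats the libraries as unpaired, and CPM is the count scaled to a library size corrected by TMM.

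Cells make cholesterol from acetyl-CoA through mevalonate, isoprenoid diphosphates, squalene and lanosterol. Fatty acids come from the same acetyl-CoA through malonyl-CoA. Genes of both routes are classical targets of the SREBP transcription factors, which SCAP escorts from the endoplasmic reticulum to the Golgi for cleavage when membrane sterol is low and which INSIG proteins hold back when sterol is ample. SREBP2 (gene SREBF2) is best known for the cholesterol genes and SREBP1 (gene SREBF1) for the fatty acid genes. NF-Y, which binds CCAAT boxes, and Sp1, which binds GC boxes, are known partners of SREBP at these promoters.

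Of the 34 genes, 5 were lower in siTLN1 and 0 were higher at an adjusted p under 0.05 (quasi-likelihood test of edgeR, p adjusted by Benjamini-Hochberg over all 16137 genes). Without adjustment, 11 were lower and 0 higher at p under 0.05 by the same test. Of all 16137 genes, 1736 (10.8%) were lower and 1460 higher at that threshold. The 5 were ACAT2, HMGCS1, MVK and MVD of the mevalonate route and LSS, which closes the sterol ring. They make up 14.7% of the list, and over all genes tested 3.77% were called lower and 2.3% higher, 6.07% in all. The median log2 fold change was −0.16 over the 34 genes and 0.0033 over all genes tested. No fatty acid synthesis gene and no gene of SREBP control or sterol transport passed this unpaired test.

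The promoters of 4 of the 5 lower genes are shown because all 4 hold CCAAT boxes, with SREBF2 and SCD, which did not pass the test, for comparison. Each window runs from 250 bases before to 50 bases after a gene start (RefSeq, GRCh38.p14) and is written 5′ to 3′ on the gene's strand. Capitals mark CCAAT or its complement ATTGG and, in SREBF2 alone, the sterol regulatory element core TCACNCCAC (other strand GTGGNGTGA), there on the gene's own strand. HMGCS1 has 2 annotated starts and the one shown holds its CCAAT boxes, while no window for ACAT2 was used here.
HMGCS1 (chr5:43313363-43313662, minus strand): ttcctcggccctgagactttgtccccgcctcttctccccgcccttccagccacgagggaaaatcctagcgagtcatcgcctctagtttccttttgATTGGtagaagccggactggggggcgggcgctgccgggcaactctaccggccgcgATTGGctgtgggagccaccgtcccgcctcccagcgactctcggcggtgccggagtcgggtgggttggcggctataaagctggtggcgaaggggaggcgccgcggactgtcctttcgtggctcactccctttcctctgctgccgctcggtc
MVK (chr12:109573544-109573843, plus strand): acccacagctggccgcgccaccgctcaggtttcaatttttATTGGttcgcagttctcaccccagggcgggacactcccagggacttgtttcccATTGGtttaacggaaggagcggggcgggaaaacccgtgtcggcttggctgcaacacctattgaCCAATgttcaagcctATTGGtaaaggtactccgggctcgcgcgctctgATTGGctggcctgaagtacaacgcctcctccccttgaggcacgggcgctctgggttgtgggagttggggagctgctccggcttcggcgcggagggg
MVD (chr16:88663042-88663341, minus strand): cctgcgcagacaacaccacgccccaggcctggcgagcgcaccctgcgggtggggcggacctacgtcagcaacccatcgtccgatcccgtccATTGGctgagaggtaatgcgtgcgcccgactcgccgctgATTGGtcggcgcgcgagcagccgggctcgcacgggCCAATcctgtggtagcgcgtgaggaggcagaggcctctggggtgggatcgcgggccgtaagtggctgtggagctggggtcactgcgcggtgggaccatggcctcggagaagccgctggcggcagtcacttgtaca
LSS (chr21:46228725-46229024, minus strand): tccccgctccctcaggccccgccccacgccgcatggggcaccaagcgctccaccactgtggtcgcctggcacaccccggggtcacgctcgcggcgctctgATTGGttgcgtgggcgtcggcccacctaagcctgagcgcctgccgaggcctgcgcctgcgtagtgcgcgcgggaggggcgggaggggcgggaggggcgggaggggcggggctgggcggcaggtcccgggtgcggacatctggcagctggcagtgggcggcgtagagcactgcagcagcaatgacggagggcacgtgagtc
SREBF2 (chr22:41832855-41833154, plus strand): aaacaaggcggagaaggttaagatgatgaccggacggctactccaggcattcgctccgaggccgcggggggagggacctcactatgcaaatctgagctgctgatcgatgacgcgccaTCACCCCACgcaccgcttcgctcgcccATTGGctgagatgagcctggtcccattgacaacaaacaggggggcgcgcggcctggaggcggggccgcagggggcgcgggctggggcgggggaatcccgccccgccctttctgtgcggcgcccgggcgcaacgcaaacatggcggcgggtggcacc
SCD (chr10:100346983-100347282, plus strand): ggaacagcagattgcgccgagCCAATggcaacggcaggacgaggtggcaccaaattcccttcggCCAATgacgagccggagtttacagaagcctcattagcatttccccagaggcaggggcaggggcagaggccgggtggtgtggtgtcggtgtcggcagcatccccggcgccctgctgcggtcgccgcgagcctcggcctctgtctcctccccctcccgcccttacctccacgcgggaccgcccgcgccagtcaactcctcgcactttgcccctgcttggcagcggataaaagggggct

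The MVK window held 5 CCAAT matches, MVD 3, HMGCS1 and SCD 2 each, and LSS and SREBF2 1 each. In HMGCS1 they began 155 and 100 bases before the start, in MVD 159, 120 and 85, and in LSS 150. Over the list, 30 genes had a window and 21 of these (70%) held CCAAT on either strand at 1 or more starts, against 43.1% of 11365 tested genes with a window and 34.6% of all 35116 windows. In 15 of the 30 genes there were 2 or more matches at 1 start, as in 16.2% of the tested genes. The GC box GGGCGG (other strand CCGCCC) was in 29 of 30, against 75.2% of tested genes and 45% of all windows. The SRE core was in 1 of 30, SREBF2, against 1.41% of tested genes and 1.13% of all windows. For each motif, shares of genes count a match at any start of a gene. Shares of windows count each start alone, genes outside the test included, so the 2 shares are unlike measures. CCAAT was also in genes that did not pass the test, including SCD, ACLY, NSDHL and MSMO1. These matches are letters in a window and say nothing of whether a factor binds there. Only the exact words given were searched, so a missing match does not show that a gene lacks such an element. Variant forms and bases outside the windows were not searched.

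Total counts were between 31854322 and 46353297 per library. TLN1 itself was at 868 and 874 CPM in SCR against 51.9 and 44.8 CPM in siTLN1 (log2 fold change −4.17, adjusted p 3.89e-13 by the same test), so the target was lower in both libraries labelled siTLN1. Its paralog TLN2 had a log2 fold change of −0.0041 (adjusted p 0.993). All 12 mesenchymal markers checked passed the filter on low counts, summing to 60857 to 62623 CPM in SCR and 58226 to 66528 CPM in siTLN1, and 2 of them fell (log2 fold change −0.89 for CDH2 and −0.48 for SPARC). EPCAM, a defining epithelial marker, reached 0.144 CPM at most although the label calls the cells epithelial. Other markers of that list were expressed, and 6 of 12 passed the filter on low counts. KRT18 was at 104 to 131 CPM, KRT14 at 66.2 to 127, KRT8 at 15.1 to 20.7 and GATA3 at 9.75 to 13.8 CPM. CDH1 and CLDN4, which also passed, reached at most 0.851 and 1.57 CPM. The summed level of 12 epithelial markers, of which KRT14 fell (log2 fold change −0.81), was 242 to 290 CPM in SCR against 210 to 225 CPM in siTLN1, and its part in the results was not tested. Markers of immune cells (CD3E, CD3D, MS4A1 and LYZ), adipocytes (ADIPOQ and LEP) and hepatocytes (APOB, TTR and CYP7A1) had no count in any library. The filter on low counts was passed by 4 of 9 immune, 3 of 6 endothelial, 1 of 7 adipocyte and 0 of 6 hepatocyte markers. The highest of these was CSF1R, listed as an immune marker, at 8.19 to 9.48 CPM. Summed levels reached at most 11.2 CPM for 9 immune markers, 6.45 CPM for 6 endothelial markers, 1.04 CPM for 7 adipocyte markers and 0.192 CPM for 6 hepatocyte markers. As in any bulk sample, fewer cells that express a gene and less RNA per cell cannot be told apart.

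The pathway was well expressed in the control cells. Per kilobase of exon, 29 of the 34 genes stood above the median tested gene in SCR and 12 were in the top 10%. ACLY had the highest SCR level at 88.1 CPM per kb, followed by SQLE (66.5), SCD (64.7), INSIG1 (63.2), FDFT1 (61.7) and MSMO1 (52.7). Among the 5 lower genes the SCR level was 50.3 CPM per kb for ACAT2, 48.3 for HMGCS1, 23.1 for LSS, 12.4 for MVD and 4.69 for MVK. The lowest was TM7SF2 at 0.385 CPM per kb, and its counts went down to 30 in a library. All 34 passed the filter on low counts.

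**Figure D1:**
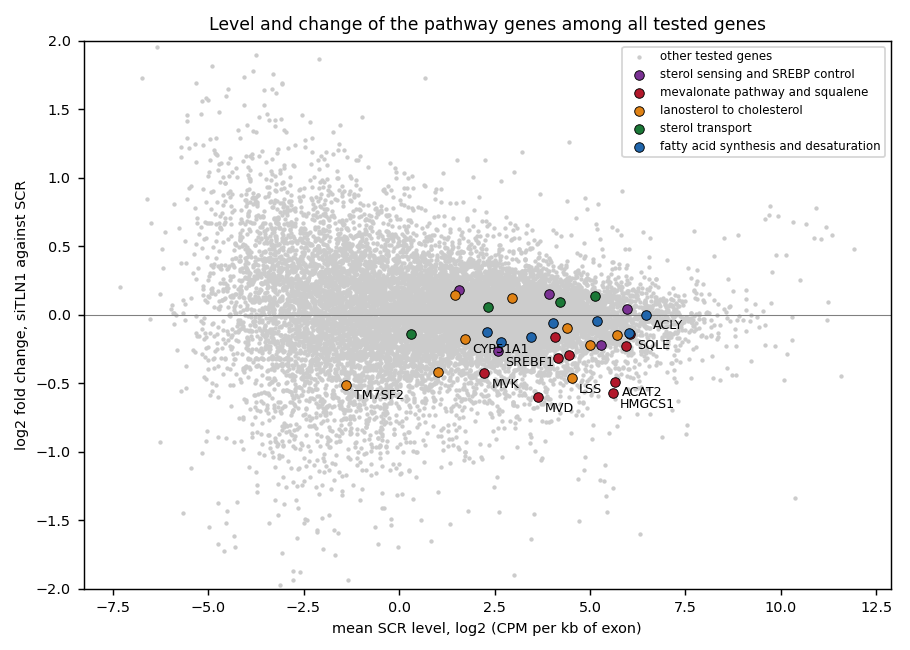
Mean SCR level as log2 CPM per kb of exon (x axis) against the log2 fold change of siTLN1 against SCR (y axis) for every tested gene in grey and the 34 pathway genes coloured by role. The 5 lower genes lie between −0.60 and −0.43, at SCR levels from 4.69 to 50.3 CPM per kb, and 23 tested genes with a log2 fold change beyond 2 in size are outside the axis.

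Of the 5 lower genes, 4 belong to the early steps from acetyl-CoA to squalene epoxide. All 9 genes of these steps had a negative log2 fold change, with both siTLN1 libraries below both SCR libraries in all 9. Over all genes tested, 24.6% had both siTLN1 libraries lower and 23.9% both higher. The median log2 fold change of the 9 was −0.32.

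HMGCS1, which condenses acetyl-CoA with acetoacetyl-CoA to the precursor of mevalonate, was at 320 and 320.4 CPM in SCR libraries a and b and 217 and 213 CPM in siTLN1 libraries a and b. The replicates lay close together and the groups did not overlap. Its mean level was 320.2 ± 0.248 CPM under SCR (SD, n = 2) against 215 ± 2.53 CPM under siTLN1 (SD, n = 2), 32.8% lower (log2 fold change −0.57, standard error 0.091, adjusted p 0.00108). HMGCS1 (ENSG00000112972.15; chromosome 5, 43287470 to 43313512, minus strand, GRCh38 as in the other positions given) kept its call in each of the 4 fits that left out 1 library, with log2 fold changes from −0.58 to −0.56.

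MVD, the decarboxylase that yields isopentenyl diphosphate, was at 51.7 and 65.5 CPM in SCR libraries a and b and 38.8 and 38.3 CPM in siTLN1 libraries a and b. The SCR libraries differed from each other more than the siTLN1 libraries did, yet both were above both siTLN1 libraries. The means were 58.6 ± 9.74 CPM under SCR (SD, n = 2) against 38.6 ± 0.367 CPM under siTLN1 (SD, n = 2), 34.2% lower (log2 fold change −0.60, standard error 0.11, adjusted p 0.00431). MVD (ENSG00000167508.12; chromosome 16, 88651935 to 88663161, minus strand) also kept its call without any 1 library, although its log2 fold change was −0.42 without SCR library b and −0.76 without SCR library a. None of its exon bases is shared with another gene.

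ACAT2, the cytosolic thiolase that joins 2 acetyl-CoA, was at 130.1 and 136 CPM in SCR libraries a and b and 90.2 and 98.6 CPM in siTLN1 libraries a and b. The 2 groups were well apart. The means were 133 ± 3.87 CPM under SCR (SD, n = 2) against 94.4 ± 5.94 CPM under siTLN1 (SD, n = 2), 28.9% lower (log2 fold change −0.49, standard error 0.094, adjusted p 0.00427). For ACAT2 (ENSG00000120437.9; chromosome 6, 159762045 to 159779112, plus strand), the adjusted p was 0.108 without siTLN1 library a, at a log2 fold change of −0.43.

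MVK, the kinase that phosphorylates mevalonate, was at 28.8 and 32.1 CPM in SCR libraries a and b and 23.2 and 22.2 CPM in siTLN1 libraries a and b. Its abundance is lower than that of the other 4, and the groups did not overlap. The means were 30.5 ± 2.37 CPM under SCR (SD, n = 2) against 22.7 ± 0.731 CPM under siTLN1 (SD, n = 2), 25.6% lower (log2 fold change −0.43, standard error 0.11, adjusted p 0.0225). The MVK call (ENSG00000110921.14; chromosome 12, 109573255 to 109598125, plus strand) was the least stable of the 5: its adjusted p was 0.124 without SCR library b (log2 fold change −0.34), 0.139 without siTLN1 library a (−0.46), 0.139 without siTLN1 library b (−0.39) and 0.0534 with no filter on low counts (−0.42). MMAB, a vitamin B12 enzyme gene encoded head to head with MVK, was named after its values were seen. It was at 18.3 and 17.7 CPM in SCR against 12.8 and 13.9 CPM in siTLN1, and fell by 0.43 on the log2 scale (adjusted p 0.0318 by the same test). MMAB shares exon bases with MVK on the opposite strand (3.47% of those of MVK).

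The other 5 genes of the mevalonate and squalene group did not pass the test. IDI1, the isomerase of isopentenyl diphosphate, was at 75.5 and 80.2 CPM in SCR against 60.8 and 64.1 CPM in siTLN1 (log2 fold change −0.32, standard error 0.094, adjusted p 0.0579). FDPS, which makes farnesyl diphosphate, was at 75.5 and 87.8 CPM in SCR against 66 and 67.2 CPM in siTLN1 (log2 fold change −0.30, standard error 0.099, adjusted p 0.0930). IDI1 passed with total counts only (adjusted p 0.0479) and with the gene-length trend removed (0.0251), and FDPS with the latter (0.0495) and without SCR library a (0.0275). FDFT1, squalene synthase, was at 309.7 and 332 CPM in SCR against 262 and 287 CPM in siTLN1, log2 fold change −0.23, standard error 0.095, adjusted p 0.189. SQLE, squalene epoxidase, was at 280.4 and 292 CPM in SCR against 266 and 253 CPM in siTLN1, a log2 fold change of −0.14 (95% interval −0.34 to 0.053). For PMVK, the second kinase of mevalonate, the values were 16 and 17.9 CPM in SCR against 14.5 and 15.7 CPM in siTLN1, a log2 fold change of −0.16 (95% interval −0.41 to 0.079). So the groups were separate for all 5, at smaller differences than those of the 4 that passed.

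**Figure D2:**
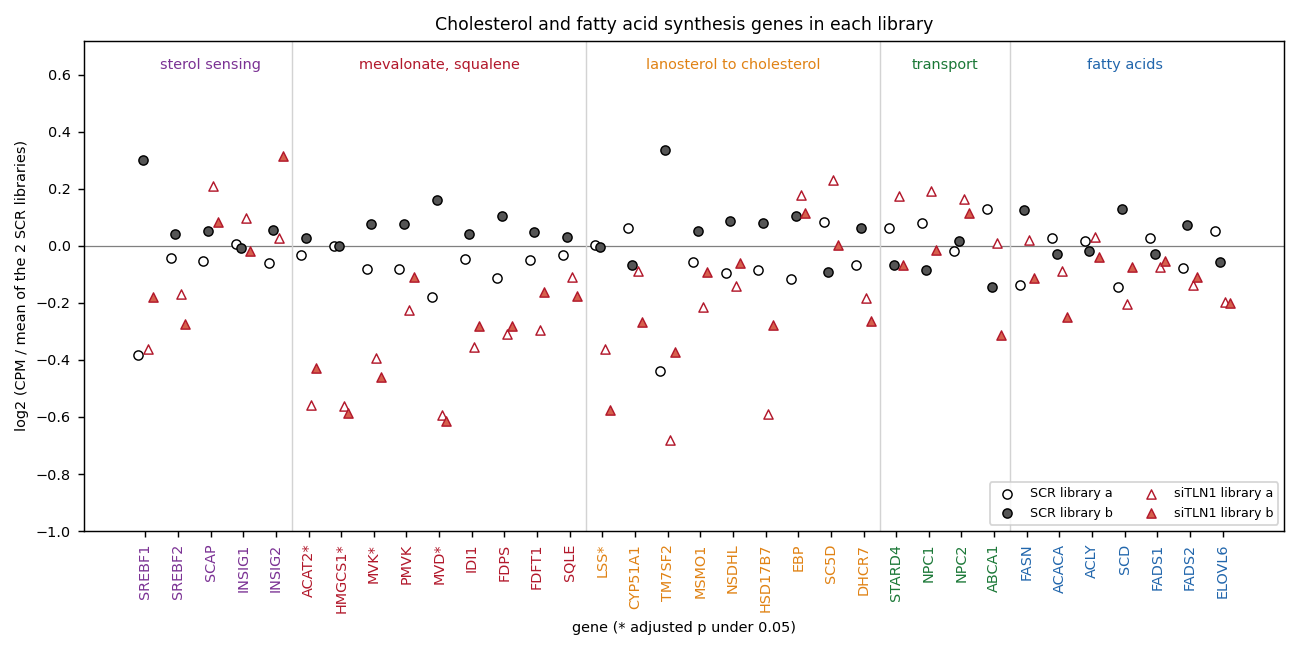
Each of the 34 genes in each library, as log2 of CPM over the mean of the 2 SCR libraries (y axis), with genes on the x axis grouped by role and an asterisk at those with an adjusted p under 0.05. Circles are SCR and triangles siTLN1, open for library a and filled for library b; both triangles lie below both circles for all 9 mevalonate and squalene genes, and circles and triangles mix for most transport genes.

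In the steps from squalene epoxide to cholesterol, 1 of 9 genes passed. LSS, lanosterol synthase, was at 168 and 167 CPM in SCR libraries a and b and 130 and 112 CPM in siTLN1 libraries a and b. Here the SCR replicates were nearly equal and the siTLN1 replicates were further apart, with no overlap. The means were 167 ± 0.676 CPM under SCR (SD, n = 2) against 121 ± 12.8 CPM under siTLN1 (SD, n = 2), 27.6% lower (log2 fold change −0.47, standard error 0.097, adjusted p 0.00835). For LSS (ENSG00000160285.15; chromosome 21, 46188141 to 46228824, minus strand), the adjusted p was 0.120 without siTLN1 library b, at a log2 fold change of −0.36.

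Of the later enzymes, 6 had a negative and 2 a positive log2 fold change, and none passed the test. HSD17B7, a sterol ketone reductase, was at 9.12 and 10.2 CPM in SCR against 6.43 and 7.98 CPM in siTLN1 (log2 fold change −0.42, adjusted p 0.100). DHCR7, the reductase of the last step to cholesterol in 1 branch, was at 126 and 138 CPM in SCR against 117 and 110.4 CPM in siTLN1 (log2 fold change −0.22, adjusted p 0.189). MSMO1, which removes methyl groups from sterol, was at 145 and 156 CPM in SCR against 129 and 141 CPM in siTLN1, a log2 fold change of −0.15 (95% interval −0.35 to 0.048). In these 3 genes both siTLN1 libraries were below both SCR libraries, as they were in CYP51A1.

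NSDHL, which acts after MSMO1, was at 39.4 and 44.7 CPM in SCR against 38.2 and 40.3 CPM in siTLN1, with overlapping groups and a log2 fold change of −0.10 (95% interval −0.31 to 0.11). CYP51A1, lanosterol demethylase, was at 12.2 and 11.1 CPM in SCR against 11 and 9.68 CPM in siTLN1 (log2 fold change −0.18). TM7SF2, a sterol reductase, had the lowest level, 0.975 and 1.67 CPM in SCR against 0.824 and 1.02 CPM in siTLN1, with a log2 fold change of −0.51 (95% interval −1.15 to 0.13). SC5D, a sterol desaturase, was at 83.1 and 73.6 CPM in SCR against 91.9 and 78.5 CPM in siTLN1 and EBP, a sterol isomerase, at 4.53 and 5.28 CPM in SCR against 5.55 and 5.32 CPM in siTLN1. Their log2 fold changes were 0.12 and 0.14, with adjusted p of 0.585 and 0.684. From ACAT2 to DHCR7, 16 of 18 enzymes were thus below 0 on the log2 scale, where 49.4% of all tested genes were.

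**Figure D3:**
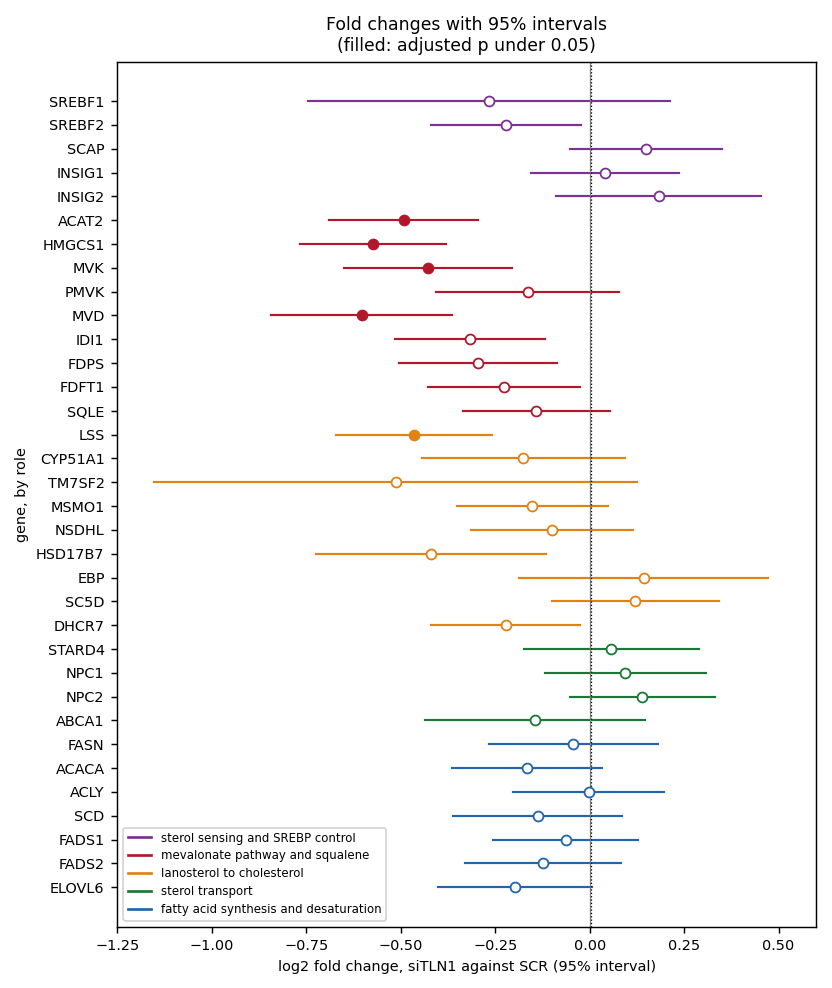
Log2 fold change of siTLN1 against SCR (x axis) with its 95% interval for the 34 genes (y axis), coloured by role, filled where the adjusted p is under 0.05; the dotted line is the median of all tested genes at 0.0033. The 5 filled points have intervals that end at or below −0.205. The intervals of all 7 fatty acid genes and all 4 transport genes include 0.

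None of the 5 genes of the SREBP system passed the unpaired test. SREBF2 was at 285 and 302 CPM in SCR libraries a and b and 261 and 243 CPM in siTLN1 libraries a and b, with both siTLN1 libraries lower, a log2 fold change of −0.22 (95% interval −0.42 to −0.023) and an adjusted p of 0.192. SREBF1 was at 38.3 and 61.4 CPM in SCR libraries a and b and 38.8 and 44 CPM in siTLN1 libraries a and b. SCR library b stood well above the other 3, so the log2 fold change was −0.57 with SCR library a left out (adjusted p 0.000422), 0.12 when SCR library b was left out and −0.27 (95% interval −0.75 to 0.21) with all 4 libraries. INSIG1, both a brake on SREBP and one of its best known targets, was at 232 and 229.6 CPM in SCR libraries a and b and 247 and 228 CPM in siTLN1 libraries a and b. The 4 values were nearly the same, at a log2 fold change of 0.041 (95% interval −0.15 to 0.24). SCAP was at 92 and 98.9 CPM in SCR against 110.4 and 101 CPM in siTLN1 and INSIG2 at 11.3 and 12.3 CPM in SCR against 12 and 14.7 CPM in siTLN1, with log2 fold changes of 0.15 and 0.18 and adjusted p of 0.423 and 0.478.

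Sterol transport showed no call in 4 genes. NPC1 and NPC2, which pass cholesterol out of lysosomes, were at 191 and 170.4 CPM in SCR against 207 and 179 CPM in siTLN1 and at 95.9 and 98.3 CPM in SCR against 109 and 105 CPM in siTLN1. Their log2 fold changes were 0.094 (95% interval −0.12 to 0.31) and 0.14 (95% interval −0.053 to 0.33). STARD4, a carrier of sterol between membranes, was at 30.1 and 27.5 CPM in SCR against 32.5 and 27.5 CPM in siTLN1, a log2 fold change of 0.058 (95% interval −0.17 to 0.29). ABCA1, which exports cholesterol and is induced by oxysterols through LXR, was at 15.2 and 12.6 CPM in SCR against 14 and 11.2 CPM in siTLN1, a log2 fold change of −0.14 (95% interval −0.44 to 0.15). The order within ABCA1 followed the library letter rather than the group, with both a libraries above both b libraries.

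The 7 fatty acid genes lay between −0.20 and −0.0028 on the log2 scale, and 0 of 7 passed the unpaired test. ACLY, which makes cytosolic acetyl-CoA for both routes, was at 464 and 453 CPM in SCR against 469 and 447 CPM in siTLN1, a log2 fold change of −0.0028 (95% interval −0.20 to 0.20). FASN, fatty acid synthase, was at 306 and 367 CPM in SCR against 342 and 312 CPM in siTLN1, a log2 fold change of −0.043 (95% interval −0.27 to 0.18). For both, the groups overlapped and the interval excludes a fall as large as that of HMGCS1.

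ACACA, acetyl-CoA carboxylase, was at 145 and 139.8 CPM in SCR against 134 and 120.1 CPM in siTLN1, with a log2 fold change of −0.17 (95% interval −0.37 to 0.034). SCD, the stearoyl-CoA desaturase, was at 307 and 371 CPM in SCR against 295 and 322 CPM in siTLN1, with a log2 fold change of −0.14 (95% interval −0.36 to 0.086). ELOVL6, an elongase of palmitate, was at 48.6 and 45.1 CPM in SCR against 40.9 and 40.8 CPM in siTLN1, with a log2 fold change of −0.20 (95% interval −0.40 to 0.0074). In ACACA and ELOVL6 both siTLN1 libraries were below both SCR libraries, and in SCD they overlapped. FADS1 and FADS2, desaturases of polyunsaturated fatty acids, had log2 fold changes of −0.064 and −0.12. The lowest bound of the 7 intervals was −0.40. Whether the mevalonate group differed from the fatty acid group was not tested.

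Across the 34 genes, both siTLN1 libraries were lower in 19 genes and both higher in 3 (SCAP, NPC2 and EBP), with overlap in 12. The shares over all genes tested were 24.6% lower and 23.9% higher. Among the 29 genes that did not pass, 21 (72.4%) had a negative log2 fold change, against 49.4% of all genes tested. Their median was −0.14. The median deviation of the 34 genes from their own mean over the 4 libraries was 0.037 (library a) and 0.14 (library b) for SCR, against −0.074 and −0.071 in the siTLN1 libraries. SCR library b was above SCR library a in 23 of the 34 genes. Set against the SCR library of the same letter, 23 genes were lower in both siTLN1 libraries and 6 were higher in both. That count by letter was not made over all genes tested, so it has no background share. The median log2 fold change of the 34 genes was −0.19 without SCR library a and −0.093 without SCR library b. It was −0.17 without siTLN1 library a and −0.15 without siTLN1 library b.

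**Figure D4:**
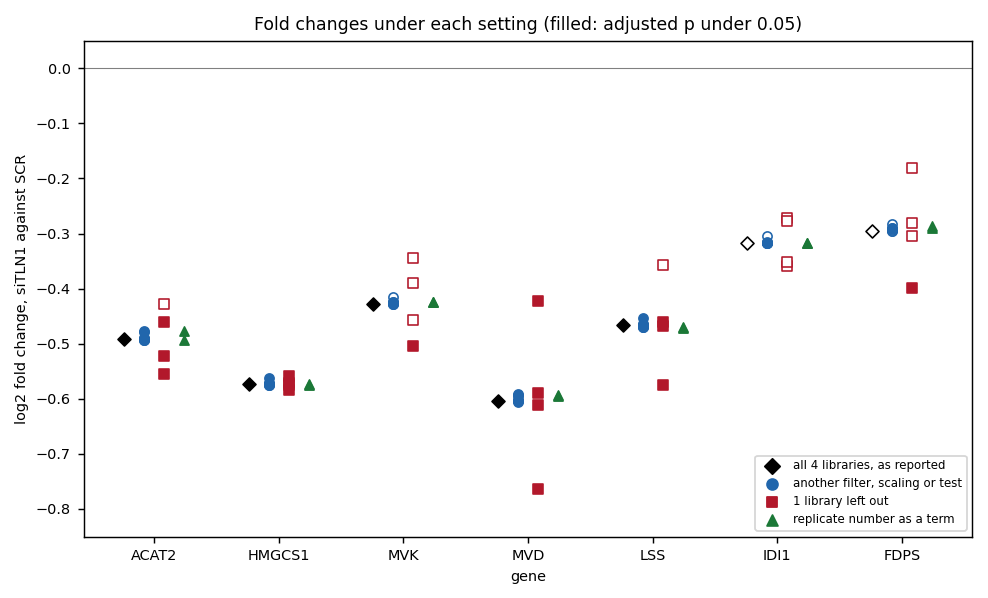
Log2 fold change (y axis) of the 5 lower genes and of IDI1 and FDPS (x axis) in the fit of all 4 libraries and under each other setting, filled where the adjusted p is under 0.05. Every value lies below 0, and the 4 fits that leave out 1 library spread most, for MVD from −0.76 to −0.42.

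Counting did not use strand although the libraries are stranded, and 12 of the 34 genes share 5% or more of their exon bases with another gene. The share was 84.5% for CYP51A1, 37.7% for HMGCS1, 36.4% for EBP, 22.2% for ACAT2, 18.6% for FDPS and 14.8% for IDI1, which leaves their counts uncertain. It was 7.88% for LSS. The gene that overlaps HMGCS1 (ENSG00000261604) had 0 counts in each library. Read pairs in shared bases can go uncounted for both genes, so this does not show that the overlap is harmless. TCP1, which overlaps ACAT2 on the opposite strand, had a log2 fold change of −0.023 (adjusted p 0.929). Named copies (pseudogenes) held counts equal to 4.48% of those of CYP51A1, 3.35% of those of HSD17B7, 0.136% of those of FDPS and 0.0144% of those of SCD. The median log2 fold change of the 22 genes with under 5% shared was −0.15.

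The 7-base word GACAACA in the 3′ UTR went with lower fold changes over the whole table: the median log2 fold change was −0.098 for the 941 tested protein-coding genes that hold it in 1 chosen GENCODE 29 transcript and 0.013 for the others, 12635 in all. The word had been picked on these data. In the list, 2 of 33 genes with such a transcript (6.06%, against 7.45% of all) held it, HMGCS1 and ELOVL6, shown with the word in capitals because HMGCS1 is one of the 5 lower genes.
HMGCS1: ttggggaatgtGACAACAttccccagtgtg
ELOVL6: tgaaaacagttGACAACAaagggcccccat

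The HMGCS1 site begins at base 456 of a 3′ UTR of 1736 bases and is in 2 of 3 coding transcripts. ACAT2, MVK, MVD and LSS held the word in no part of the chosen transcript and in the 3′ UTR of 0 annotated coding transcripts. The part of the word in the HMGCS1 value was not tested. The median of the 31 genes without it was −0.15.

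Calls among other lipid genes outside the list were few and went both ways. Of 32 regulators tested (of 36 listed), 1 was lower and 1 higher, and of 36 other sterol enzymes and carriers (of 40) 3 were lower and 2 higher. Of 48 other fatty acid and acyl-lipid genes (of 52), 3 were lower and 1 was higher. The shares lower and higher were 3.12% and 3.12%, 8.33% and 5.56%, and 6.25% and 2.08% in these 3 lists. Over all genes tested they were 3.77% and 2.3%. None of 20 genes of the isoprenoid branches (of 21) and none of 32 of fatty acid oxidation (of 34) passed edgeR's test. In each of these 2, 3 genes were at an unadjusted p under 0.05, as were 3196 of all 16137 genes. The median log2 fold changes of the 5 lists were −0.070, 0.049, −0.013, 0.019 and −0.034, in the order named.

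PGRMC1, a haem-binding membrane protein known as a partner of CYP51A1, fell, at 81.3 ± 1.87 CPM under SCR (SD, n = 2) against 37.9 ± 4.78 CPM under siTLN1 (SD, n = 2) (log2 fold change −1.10, standard error 0.10, adjusted p 7.34e-06). CYB5B, an outer mitochondrial cytochrome b5, was at 103 and 100.1 CPM in SCR against 60.7 and 71.9 CPM in siTLN1 (log2 fold change −0.61, standard error 0.10, adjusted p 0.00144), with 35.6% of its exon bases shared. LRP8, a lipoprotein receptor, was lower, with a log2 fold change of −0.46 (adjusted p 0.0100). NCEH1, which hydrolyses cholesteryl ester, rose in this list and was at 198 and 174 CPM in SCR against 292 and 252 CPM in siTLN1 (log2 fold change 0.55, standard error 0.10, adjusted p 0.00410).

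Among the fatty acid genes, HACD1, a dehydratase of chain elongation, fell by 0.69 on the log2 scale (adjusted p 0.00106). PCYT2, which makes CDP-ethanolamine for phospholipid, had a log2 fold change of −0.59 (adjusted p 0.00167) and shares 28.1% of its exon bases with other genes. SCD5, a second stearoyl-CoA desaturase, had one of −0.43 (adjusted p 0.0413), and ELOVL4, an elongase of very long chains, one of 0.45 (adjusted p 0.0298). Of the regulators, PPARG, a lipid-binding nuclear receptor, also fell, at 16.7 ± 0.154 CPM under SCR (SD, n = 2) against 11.8 ± 0.729 CPM under siTLN1 (SD, n = 2) (log2 fold change −0.50, standard error 0.12, adjusted p 0.0160). NFYA, a subunit of the CCAAT-binding factor, rose to 99.7 from 78.3 CPM (log2 fold change 0.35, standard error 0.092, adjusted p 0.0320). The calls of NFYA and ELOVL4 and that of SCD5 depended on the setting: NFYA had an adjusted p of 0.0566 and SCD5 one of 0.0861 with no filter on low counts, and with DESeq2 ELOVL4 had 0.0512 and SCD5 0.0807. With 1 library left out, NFYA and SCD5 lost their calls in all 4 fits and ELOVL4 in 3 (it kept its call without SCR library a, adjusted p 0.0195). LRP8 lost its call without any of 3 single libraries (0.0540 to 0.0855) and PPARG without siTLN1 library a (0.212). Leaving out siTLN1 library a also ended the calls of CYB5B (log2 fold change −0.49, adjusted p 0.0567) and NCEH1 (0.44, adjusted p 0.0823).

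**Figure D5:**
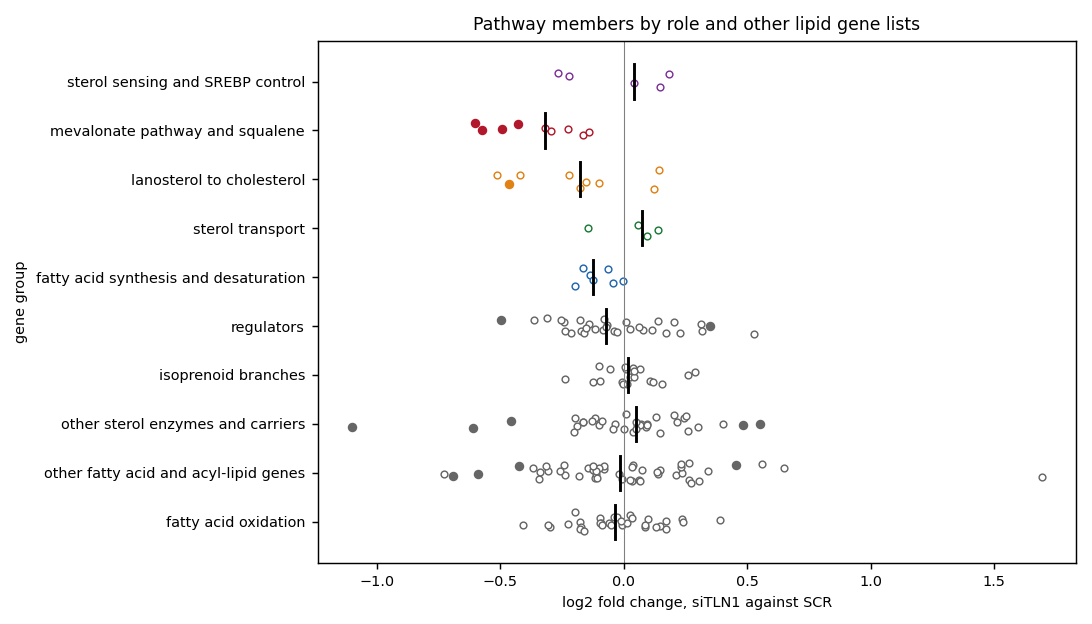
Log2 fold changes of siTLN1 against SCR (x axis) for the 34 genes by role and for 5 other lists of lipid genes (y axis), filled where the adjusted p is under 0.05, with a bar at each median. The mevalonate and squalene median lies at −0.32, and the medians of the other 4 roles and the 5 other lists lie between −0.18 and 0.076.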

How the data were processed

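Per the file headers, the deposited values are raw counts for each gene, from featureCounts 2.0.0 run on read pairs with GENCODE 33 (GRCh38) and no strand option. STAR 2.7.9a and edgeR 3.34.1 are named in the submitters' processing notes. Gene lengths in exon bases are a further deposited column. The authors also deposited log2 CPM for 16137 genes, and 100% of them matched TMM log2 CPM recomputed here within 1e-06 once sorted in each group. Count columns name their group but no label's replicate. Genes passing filterByExpr (minimum count 10, total 15) were compared with edgeR 4.0.16 (R 4.3.3; TMM, robust glmQLFit, glmQLFTest), threshold 0.05 after Benjamini-Hochberg adjustment. All p values in the text come from this test unless another is named, and with 2 libraries per group an exact permutation test cannot go below 0.333. The procedures were tested on simulated data. Alternatives were RLE scaling, total counts, 2 other filters, DESeq2 1.42.0, limma 3.58.1 (voom and trend), removal of the gene-length trend, each library left out and a replicate block. Symbols matched for 16085 tested genes. The members, lists and the word GACAACA were chosen with earlier results of these data known. Named were all members, TLN1, TLN2 and up to 6 called genes per wider list, and some listed genes are not reported here. No label says that the replicates came from separate cultures beyond naming them biological. The p values rest on the spread between these libraries, with the estimate for each gene drawn towards that of other genes.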

Additional observations from a re-analysis of the deposited data

How the results depend on the processing

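With all 4 libraries and no replicate block, 8 other settings gave 4 (no filter) to 7 (gene-length trend removed) lower members and 0 higher. Lower genes made up 1.19% of 32708 tested with no filter and 5.19% with that trend removed, against 3.77% in the main fit. The main fit called 980 genes in all. The members' median stayed between −0.16 and −0.14 over these 8 settings. DESeq2 gave no adjusted p for TM7SF2. ACLY alone changed sign there (0.0093 with no filter, adjusted p 0.957). With 1 library left out, where the lone library is assumed to vary like the other group, 324 to 1100 genes changed (980 with all 4, 324 without siTLN1 library a), 3 to 7 members were lower, and the members' median ranged from −0.19 to −0.093. The 5 called members kept their call in 15 of 20 such fits. Signs changed within these ranges: SREBF1 −0.57 to 0.12, INSIG1 −0.014 to 0.10, STARD4 −0.063 to 0.18, NPC1 −0.010 to 0.20, ABCA1 −0.31 to 0.015, FASN −0.17 to 0.096, ACLY −0.035 to 0.035 and SCD −0.27 to 0.0062. Differences between replicates 1 and 2 correlated between groups at 0.19 over all genes, 0.536 over the 10486 genes at 5 CPM or more and 0.658 over the 34 members (genes, not independent replicates). The number in the count columns also recurs in both groups, but no label states a shared preparation, so whether it marks one is not known and replicate numbers did not serve as pairs. With the replicate block (limma-trend on the deposited log2 CPM) 3645 genes changed, 12% of all being lower, and 13 members were lower: the 5 with SREBF2 (adjusted p 0.00431), IDI1, FDPS, FDFT1, HSD17B7, DHCR7, ACACA (0.0389) and ELOVL6 (0.0279). With the block and the gene-length trend removed, 3655 genes changed, again 12% of all being lower, and 14 members were lower, SREBF1 being added. The median of members lacking GACAACA in the 3′ UTR (−0.15) and the count at 5 CPM or more (5) were chosen after seeing the data. TM7SF2 alone was under 5 CPM on average, which widens its interval.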
